A study of Mus musculus with 12 samples.

Results

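The 36 genes described here carry the cell cycle through its phases in mouse embryonic stem cells: cyclins and their kinases, the licensing and replication machinery of S phase, and the kinases and regulators of G2 and mitosis. They were chosen as a list of named genes of the cycle, with no threshold on their values, and all 36 were found among the 55487 genes of the count table and passed the filter on low counts that left 18134 genes for testing. They fall into 11 G1 cyclins, cyclin-dependent kinases (CDKs) and inhibitors, 13 licensing, replication and S phase genes, and 12 genes of G2 and M phase. The study sequenced polyadenylated RNA of the embryonic stem cell line E14 Tg2a, with 3 independent clones carrying a knockout of Pcbp1 (KO), an RNA-binding protein gene, and 3 independent control clones (Scr in the design text, WT in the sample labels). Each clone was grown naive, in N2B27 medium with LIF, the MEK inhibitor PD0325901 and the GSK3 inhibitor CHIR99021, and as epiblast-like cells (EpiLCs) after 48 h in N2B27 with bFGF, Activin A and KOSR on fibronectin. This gave 4 groups of 3 libraries, WT and KO in each condition, and the question of the series is what loss of Pcbp1 changes in the step from naive to primed pluripotency. Since each library is 1 clone in 1 condition, every p-value refers to the spread among these clones.

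Cells enter the cycle when D-type cyclins with CDK4 or CDK6, and then E-type cyclins with CDK2, phosphorylate the RB family and free E2F factors, which switch on the genes of DNA replication. Licensing loads the MCM helicase onto origins through CDC6 and CDT1, geminin (Gmnn) blocks it after S phase has begun, and cyclin A, cyclin B with CDK1, the Aurora kinases and PLK1 then drive mitosis. Embryonic stem cells are known for a short G1 phase, high CDK2 activity and weak dependence on D-type cyclins.

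Promoters of cell cycle genes are known for elements that time their expression, so 7 are shown, chosen because their genes changed most clearly in the comparisons or carry many matches. RefSeq gave a window of 250 bases before to 50 after the start site (GRCm38.p6) for 28 of the 36 members; Ccnd1, Ccnd2, Ccne2, Gmnn, Mcm4, Ccna2, Aurkb and Foxm1 had none. The 250 bases before the start are printed 5′ to 3′ on the strand of the gene, in lower case, with matches to 3 elements in capitals. The elements were E2F sites (TTTCGCGC, TTTGGCGC, TTTCCCGC or TTTGCCGC), the cell cycle homology region of G2 and M promoters (TTTGAA or TTCGAA) and the CCAAT box (CCAAT), each searched on both strands. The G1 genes are Cdk6 (chr5:3343643-3343892, plus strand), Cdk2 (chr10:128705052-128705301, minus strand) and Ccne1 (chr7:38107491-38107740, minus strand). The helicase genes are Mcm6 (chr1:128359706-128359955, minus strand) and Mcm7 (chr5:138171884-138172133, minus strand, the one of its 2 windows with more matches). The mitotic genes are Aurka (chr2:172370571-172370820, minus strand) and Top2a (chr11:99024190-99024439, minus strand).
Cdk6: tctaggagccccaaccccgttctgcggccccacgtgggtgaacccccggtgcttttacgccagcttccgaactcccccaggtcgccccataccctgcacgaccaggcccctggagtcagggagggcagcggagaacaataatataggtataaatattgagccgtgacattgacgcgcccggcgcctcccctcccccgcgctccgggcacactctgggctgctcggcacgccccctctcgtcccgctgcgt
Cdk2: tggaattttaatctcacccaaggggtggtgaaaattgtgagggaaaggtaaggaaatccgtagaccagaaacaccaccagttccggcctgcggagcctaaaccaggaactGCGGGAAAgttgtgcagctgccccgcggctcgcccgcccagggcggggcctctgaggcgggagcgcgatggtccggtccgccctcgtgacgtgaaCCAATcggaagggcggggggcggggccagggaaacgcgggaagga
Ccne1: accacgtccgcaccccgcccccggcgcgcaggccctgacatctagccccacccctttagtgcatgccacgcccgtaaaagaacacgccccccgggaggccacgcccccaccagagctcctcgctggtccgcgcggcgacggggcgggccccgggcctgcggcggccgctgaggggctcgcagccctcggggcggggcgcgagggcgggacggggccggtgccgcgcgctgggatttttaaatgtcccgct
Mcm6: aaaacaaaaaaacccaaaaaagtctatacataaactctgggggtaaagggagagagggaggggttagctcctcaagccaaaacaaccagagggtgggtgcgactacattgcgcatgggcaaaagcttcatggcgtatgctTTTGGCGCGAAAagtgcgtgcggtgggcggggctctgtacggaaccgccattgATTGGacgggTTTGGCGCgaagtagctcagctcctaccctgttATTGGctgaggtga
Mcm7: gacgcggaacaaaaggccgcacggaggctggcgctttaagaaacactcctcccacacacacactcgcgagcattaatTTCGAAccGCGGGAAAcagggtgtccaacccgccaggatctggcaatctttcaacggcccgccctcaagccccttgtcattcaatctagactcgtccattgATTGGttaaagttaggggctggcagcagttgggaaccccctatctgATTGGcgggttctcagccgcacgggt
Aurka: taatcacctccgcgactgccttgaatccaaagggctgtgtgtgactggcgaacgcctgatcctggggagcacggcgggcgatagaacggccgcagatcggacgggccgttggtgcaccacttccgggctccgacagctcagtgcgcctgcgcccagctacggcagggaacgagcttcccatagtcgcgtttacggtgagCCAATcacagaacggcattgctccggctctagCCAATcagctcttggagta
Top2a: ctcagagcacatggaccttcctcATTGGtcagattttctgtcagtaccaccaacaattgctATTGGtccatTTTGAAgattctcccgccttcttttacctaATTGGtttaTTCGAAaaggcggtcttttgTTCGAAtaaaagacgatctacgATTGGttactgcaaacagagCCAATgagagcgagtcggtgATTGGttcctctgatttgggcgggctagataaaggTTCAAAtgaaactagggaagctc

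The 3 groups of members differed in which letters their windows held. An E2F site stood in 2.26% of all 32851 windows and in 25.8% of the 31 member windows. Counted by gene, it was in 8 of the 28 members: 6 of 11 licensing and S phase genes (Cdc6, Cdt1, Mcm3, Mcm5, Mcm6 and Mcm7), Cdk2 and Cdk1. Mcm6 held 3 of them, at -110, -106 and -47 from the start, where -1 is the last base before it, and the first 2 overlap on opposite strands. The cell cycle homology region, a short string found in 19.2% of all windows, was in 8 of the 9 G2 and M members with a window, in 2 of 11 licensing and S phase genes (Mcm2 and Mcm7) and in 0 of 8 G1 genes. The CCAAT box was in 37.4% of all windows and in all 9 of these G2 and M members. Neither the Cdk6 nor the Ccne1 window held a match to any of the 3. In Top2a the homology region stood at -179, -140, -120 and -23, among CCAAT boxes from -227 to -58. TTCGAA reads the same on both strands, and a match describes letters, not binding.

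**Figure D1:**
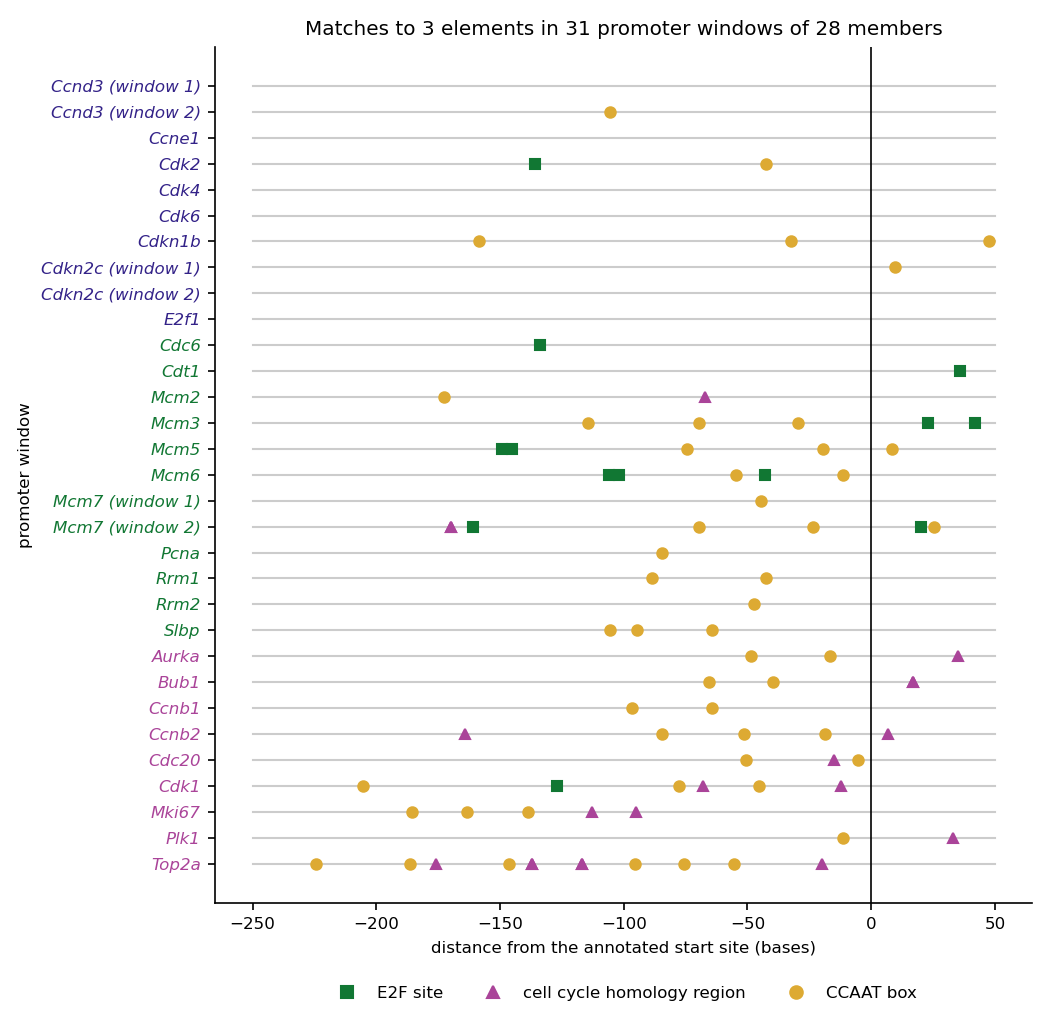
Matches to the 3 elements (squares, E2F sites; triangles, cell cycle homology region; circles, CCAAT box) along the 31 windows of 28 members, by distance from the annotated start site in bases. Squares gather in the licensing and S phase rows, 6 of 11 genes, and triangles in the G2 and M rows, 8 of 9 genes.

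The libraries held 27146744 to 42204511 counted reads. The targeted gene checked the labels: Pcbp1 read 475, 418 and 474 CPM (counts scaled to 1000000 per library with edgeR's TMM factors) in replicates 1, 2 and 3 of naive WT against 295, 302 and 303 in naive KO, then 692, 512 and 592 in EpiLC WT against 250.3, 302 and 265 in EpiLC KO, so every KO library was below every WT library of its condition while transcript remained. Of the pluripotency markers, 8 naive genes summed to 4361 to 4736 CPM in naive libraries and 181 to 620 CPM in EpiLCs, and 7 formative and primed genes to 105 to 186 and 2940 to 5091 CPM. EpiLC WT replicate 2 stood apart, with the highest naive sum of the EpiLCs and the lowest formative sum, so results that move without it are given both ways. Of 8 endoderm markers, 6 had a mean of at least 1 CPM in EpiLC KO, with sums of 26.9 to 36.3 CPM, and 2 in EpiLC WT, with sums of 2.53 to 9.90 CPM. Sums of 7 fibroblast markers were 2.95 to 3.65 CPM in naive WT and 4.86 to 8.52 in naive KO, where Dcn was at 0, and 8.96 to 17.96 in EpiLC WT and 18.1 to 32.6 in EpiLC KO. Of 5 mesoderm and 5 trophoblast markers, sums were highest in naive cells, at 23.0 to 25.4 and 75.2 to 100.6 CPM in naive WT and 19.3 to 35.7 and 97.9 to 121 CPM in naive KO. They were 5.69 to 10.00 and 5.82 to 15.9 CPM in EpiLC WT and 13.1 to 19.0 and 15.6 to 20.4 CPM in EpiLC KO. Single genes made up most of these naive sums: Tfap2c in the trophoblast list (mean 83.2 CPM in naive WT and 105 in naive KO), and Gsc and T in the mesoderm list. Eomes, in both lists, went the other way, with means of 1.86 and 2.63 CPM in naive WT and KO against 7.76 and 15.7 in EpiLC WT and KO. Of 4 markers of 2-cell-like cells, sums were 1.12 to 3.82 CPM in EpiLC WT and 1.92 to 29.2 in EpiLC KO. The part of these cell types in the results below was not tested. In bulk RNA, fewer cells in a phase and less RNA per cell cannot be told apart.

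Set on a scale that allows for gene length (CPM per kb of exon), the members spanned a wide range in naive WT. The helicase subunit genes Mcm3 (210.0 ± 16.8 CPM per kb, SD, n = 3), Mcm7 (146 ± 11.4) and Mcm5 (143 ± 14.8) stood with Cdk4 (209 ± 16.8) and Cdc20 (140.1 ± 17.7), the mitotic activator of the anaphase-promoting complex, at the top. At the bottom were the G1 regulators Cdk6 (4.61 ± 0.199), Ccne2 (3.53 ± 0.595), the INK4 inhibitor Cdkn2c (0.972 ± 0.179) and Ccnd2 (0.0362 ± 0.0152). Mcm3 and Cdk4 did not differ beyond their spread in this order. The G1 kinase pair was thus almost all Cdk4: Cdk6 made up 2.17% ± 0.180 (SD, n = 3) of their summed level per length in naive WT and 0.505% ± 0.171 in naive KO, and 1.44% ± 0.259 in EpiLC WT and 0.815% ± 0.0957 in EpiLC KO. The E-type cyclins were almost all Ccne1, with 91.6% ± 0.870 of the pair in naive WT and 96.7% ± 1.32 in EpiLC WT.

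**Figure D2:**
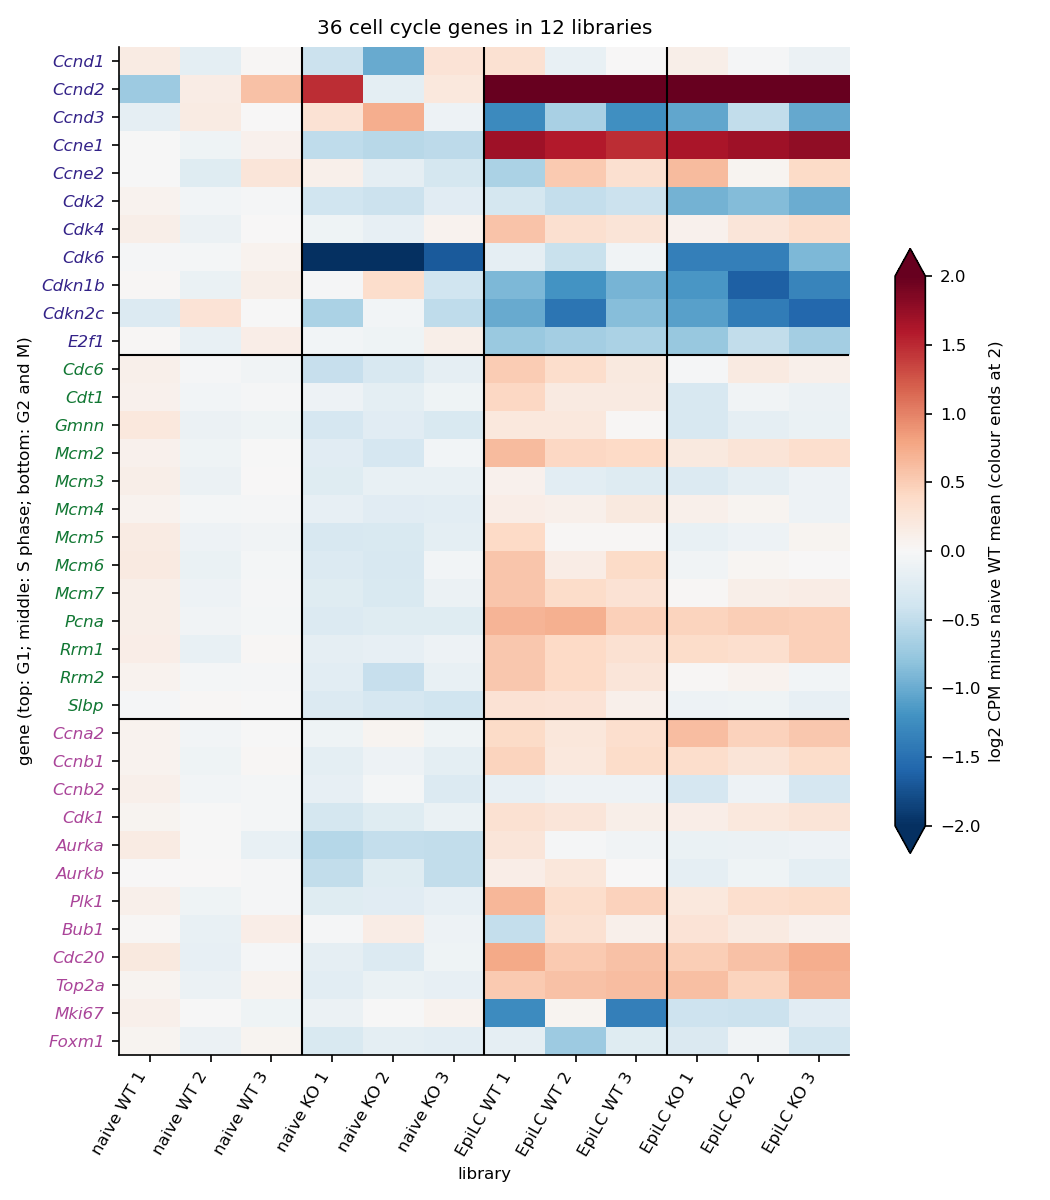
Each row is a member and each column a library; colour is log2 CPM minus the mean of the 3 naive WT libraries, and it ends at 2 in either direction. Cdk6 is dark blue in the 3 naive KO libraries, Ccnd2 and Ccne1 are dark red in all 6 EpiLC libraries, and most licensing and S phase rows are pale blue in naive KO and paler in EpiLC KO than in EpiLC WT.

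Loss of Pcbp1 was first compared in naive cells. Of the 36 members, 0 rose and 6 fell: Cdk6, Ccne1 and Cdk2 of G1, the histone mRNA binding protein gene Slbp of S phase, and the Aurora kinase genes Aurka and Aurkb of mitosis. That is 16.7% of the members lower and 0% higher, beside 4.95% lower and 4.27% higher of all 18134 genes tested (edgeR, Benjamini-Hochberg adjusted p under 0.05). Of the 30 members that did not pass, 26 had fold changes below 0, with a median of -0.18. Over all 36 it was 32, with a median of -0.21, while 49.8% of all genes were below 0. At an unadjusted p under 0.05 the counts were 0 higher and 15 lower, beside 11.5% and 12.1% of all genes. DESeq2 called 0 higher and 10 lower, beside 6.17% and 7.71%.

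Cdk6, a kinase partner of the D-type cyclins, was the member with the lowest fold change. It read 63.2, 62.6 and 67.7 CPM in naive WT against 15.0, 8.30 and 20.0 CPM in naive KO, a 4.47-fold fall that left no overlap between the groups (-2.16 ± 0.254 log2, SE, n = 3 per group, adjusted p = 0.000377). Its level was lowest in KO replicate 2 and highest in KO replicate 3. The 27 tested genes within 5 Mb of it had a median fold change of 0.15, above that of Cdk6. The other G1 kinases were changed less: Cdk2, the partner of cyclins E and A, read 205, 188 and 193 CPM in naive WT against 147, 145 and 167 in naive KO (-0.35 ± 0.0852, adjusted p = 0.0229). Cdk4 did not pass, with 733, 623 and 676 CPM in naive WT against 634, 606 and 709 in naive KO (-0.06 ± 0.107, adjusted p = 0.783). The Cdk4 groups overlap, whereas for Cdk2 the highest KO library is below the lowest WT library.

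Ccne1 encodes cyclin E1, which activates CDK2 at the entry into S phase. It read 101, 96.2 and 108 CPM in naive WT against 71.8, 69.3 and 70.3 in naive KO, where the 3 clones lay close together and below every WT library (-0.53 ± 0.0834, adjusted p = 0.00246). Its relative Ccne2 read 12.1, 10.4 and 14.5 and 13.1, 10.8 and 9.57 CPM (-0.15 ± 0.269, adjusted p = 0.792), with overlapping groups. Of the D-type cyclins, which link growth factor signals to the cycle, 0 passed. Ccnd1 read 242, 188 and 218 CPM in naive WT against 159.7, 107 and 259 in naive KO (-0.30 ± 0.241, adjusted p = 0.491). KO replicate 3 lay above all WT libraries and the other KO clones below them, and without it the fold change was -0.73 and passed (adjusted p = 0.0291). Ccnd3 read 228, 288 and 258 and 314, 426 and 239.7 CPM (0.34 ± 0.221, adjusted p = 0.384). Its order of KO clones, highest in replicate 2 and lowest in replicate 3, was that of its 98 chromosome 17 neighbours, whose median difference from the WT mean was 0.51 in KO replicate 2, 0.25 in replicate 1 and -0.11 in replicate 3. Ccnd2 stayed under 1 CPM in all 6 naive libraries.

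The inhibitors and E2f1 gave small or no differences between naive KO and WT. Cdkn1b, the CDK inhibitor p27, read 54.0, 48.3 and 57.6 CPM in WT and 52.6, 68.1 and 40.4 in KO (0.01 ± 0.180, adjusted p = 0.984). Cdkn2c read 2.15, 3.11 and 2.58 and 1.66, 2.48 and 1.81 CPM (-0.39 ± 0.270, adjusted p = 0.414), and E2f1 93.9, 83.0 and 101 and 89.1, 87.5 and 101 CPM (-0.01 ± 0.105, adjusted p = 0.987). All 3 had overlapping groups.

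All 13 licensing, replication and S phase genes had fold changes below 0 in naive KO, from -0.34 for Slbp to -0.13 for Cdt1, with a median of -0.22, but only Slbp passed. Cdt1 lay at 0.03 once the trend with GC content was removed. The unadjusted count was 8 and that of DESeq2 4 (Cdc6, Mcm4 and Pcna beside Slbp). Slbp, which binds the stem loop of replication-dependent histone mRNAs, read 103, 106 and 105 CPM in naive WT against 86.2, 82.8 and 79.3 in naive KO (-0.34 ± 0.0824, adjusted p = 0.0232). The 3 WT libraries lay within a few CPM of each other and all KO libraries below them. The mean log2 CPM of the 13 genes was 8.44, 8.25 and 8.30 in naive WT against 8.07, 8.05 and 8.16 in naive KO, so the lowest WT library was above the highest KO library. The median fold change of the tested genes within 5 Mb ran from -0.32 around Rrm2 (47 genes) to 0.13 around Mcm3. Rrm2 read 304, 254 and 318 CPM in naive KO, and its neighbours had median differences from the WT mean of -0.33, -0.58 and -0.12. The part of neighbouring genes in these falls was not tested.

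Of the 12 G2 and M phase genes, Aurka and Aurkb fell and 0 rose. Aurka, the kinase of the spindle poles, read 187, 166 and 151 CPM in naive WT against 112, 119.7 and 119 in naive KO (-0.52 ± 0.104, adjusted p = 0.0088). Aurkb, the kinase of the chromosomal passenger complex, read 101, 102 and 98.7 and 71.8, 84.9 and 71.2 CPM (-0.40 ± 0.0957, adjusted p = 0.0207). Both had every KO library below every WT library. The other 10 ran from -0.24 for Cdk1 (adjusted p = 0.102) and Foxm1 (adjusted p = 0.31) to 0.01 for Bub1 (adjusted p = 0.98). The calls of Cdk6, Ccne1 and Aurka held without any 1 of the 12 libraries. That of Cdk2 ended without naive WT replicate 1 (adjusted p = 0.0629) or 3 (0.0541) and without naive KO replicate 1 (0.0851) or 2 (0.066), that of Slbp without naive WT replicate 3 (0.0533) and Aurkb's without replicate 1 of naive KO (0.0774).

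**Figure D3:**
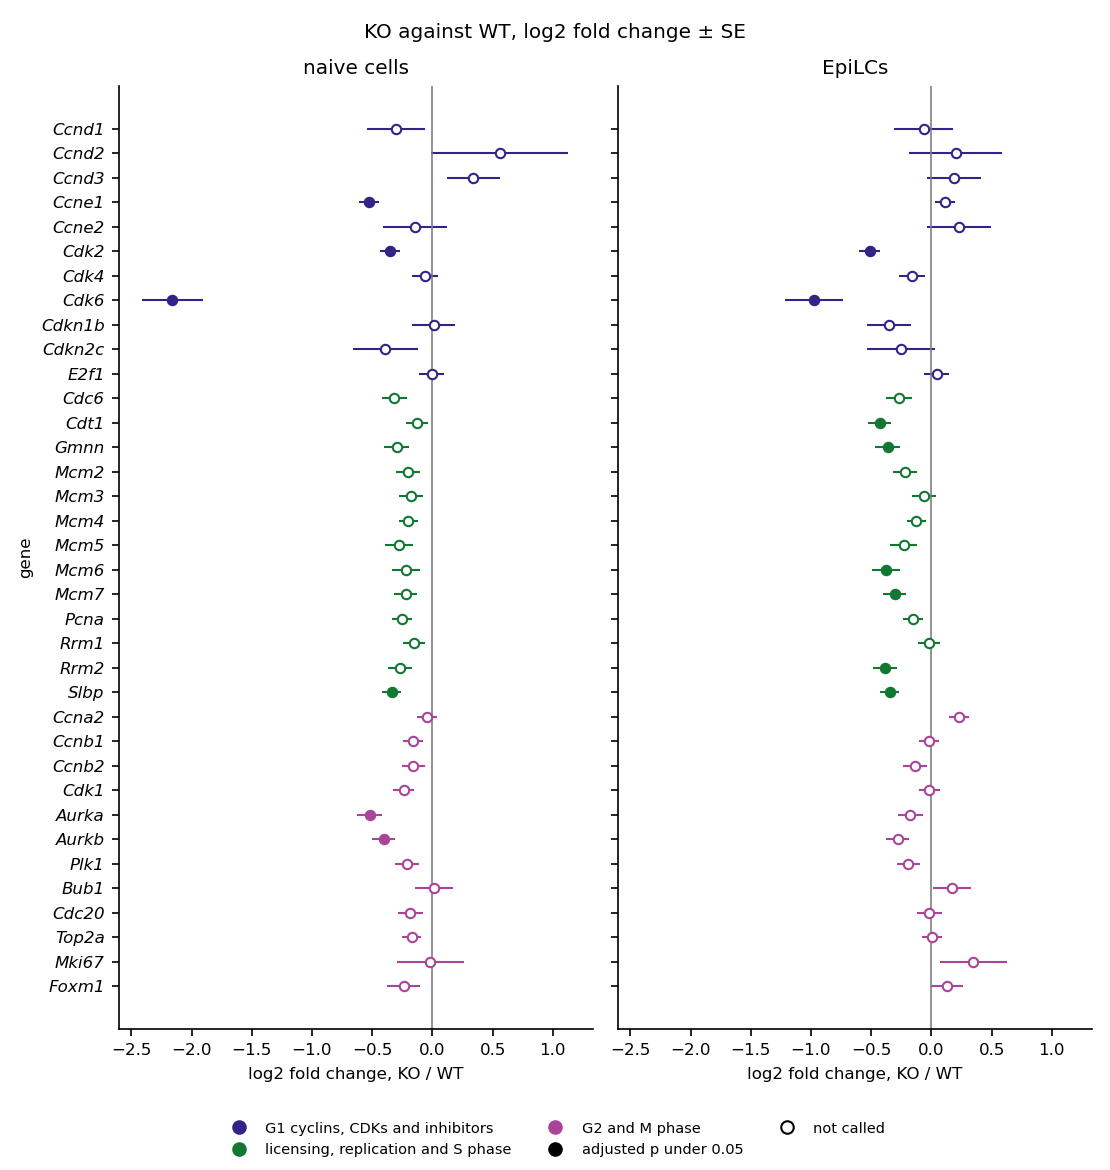
Log2 fold change of each member between KO and WT with its SE, in naive cells (left) and in EpiLCs (right); filled points passed at an adjusted p under 0.05. Cdk6 lies farthest left in both panels, at -2.16 and -0.97, and the licensing and S phase genes lie left of 0 in both, 13 of 13.

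The same comparison was then made in EpiLCs. Of the 36 members, 0 rose and 8 fell: Cdk6 and Cdk2 again, and 6 of the 13 licensing and S phase genes, Cdt1, Gmnn, Mcm6, Mcm7, Rrm2 and Slbp. That is 22.2% lower, beside 7.86% lower and 7.22% higher of all genes tested. In the other 28 members the fold changes went both ways, with 18 below 0 and a median of -0.04. Over all 36 it was 26 (72.2%, beside 49.8% of all genes), with a median of -0.15. At an unadjusted p under 0.05 the counts were 1 higher and 11 lower, beside 14.8% and 15.3% of all genes. DESeq2 called 1 higher (Ccna2) and 9 lower, beside 9.36% and 10.2%.

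In G1, Cdk6 read 56.8, 47.4 and 61.7 CPM in EpiLC WT against 25.0, 25.1 and 34.4 in EpiLC KO (-0.97 ± 0.244, adjusted p = 0.0196), and Cdk2 153, 139.7 and 144 and 101, 107 and 98.4 CPM (-0.51 ± 0.0855, adjusted p = 0.00258). Neither gene's groups overlapped. Ccne1, lower in naive KO, did not pass in EpiLCs: it read 329, 304 and 284 CPM in WT and 315, 328 and 346 in KO (0.11 ± 0.0826, adjusted p = 0.409). Nor did Cdk4, with 999.7, 847 and 809 and 715, 796 and 865 CPM (-0.16 ± 0.107, adjusted p = 0.347), or Cdkn1b, with 28.5, 23.1 and 27.9 and 23.7, 17.1 and 21.4 CPM (-0.36 ± 0.183, adjusted p = 0.212). The groups of Ccne1 and Cdk4 overlapped, and those of Cdkn1b did so at 1 library each. The D-type cyclins gave -0.07 for Ccnd1, 0.20 for Ccnd2 and 0.19 for Ccnd3, with adjusted p from 0.619 to 0.888.

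The S phase genes that fell cover licensing and its control, the helicase, nucleotide supply and histone mRNA. Cdt1, which loads the helicase, read 301, 259 and 258 CPM in EpiLC WT against 182, 215 and 210.1 in EpiLC KO (-0.43 ± 0.0946, adjusted p = 0.0106). Gmnn, whose protein inhibits CDT1, read 118, 119 and 104 and 82.1, 90.0 and 93.1 CPM (-0.36 ± 0.105, adjusted p = 0.037). Both the loader and its inhibitor were thus lower in KO, with no overlap of groups. The helicase subunit Mcm6 read 871, 658 and 777 and 568, 611 and 597 CPM (-0.38 ± 0.117, adjusted p = 0.0475), and Mcm7 944, 831 and 786 and 656, 700.5 and 716 CPM (-0.31 ± 0.0934, adjusted p = 0.0448). EpiLC WT replicate 1 was the highest library for both, and every KO library was below every WT library. Rrm2, the small subunit of ribonucleotide reductase, which makes deoxynucleotides, read 513, 462 and 414 and 357, 367 and 338 CPM (-0.39 ± 0.102, adjusted p = 0.0246). Its partner subunit Rrm1 did not pass, with 451, 411 and 385 and 401, 394 and 434 CPM (-0.02 ± 0.0921, adjusted p = 0.918) and overlapping groups. Slbp read 128, 127 and 113 and 97.5, 98.4 and 93.1 CPM (-0.35 ± 0.0823, adjusted p = 0.015).

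The remaining 7 S phase genes were also below 0, from -0.27 for Cdc6 (adjusted p = 0.107) to -0.02 for Rrm1, so that 13 of 13 lay below 0 with a median of -0.27. Rrm1 was above 0 with genes of a mean of at least 1 CPM (0.02), when replicate 1 of EpiLC WT (0.04) or 2 of EpiLC KO (0.0083) was left out and in the fit of the 6 EpiLC libraries (0.00087), and Mcm3 without EpiLC WT replicate 1 (0.05). The other subunits of the one helicase did not pass: Mcm2 was at -0.22, Mcm3 at -0.06, Mcm4 at -0.12 and Mcm5 at -0.23 (adjusted p from 0.15 to 0.723), and differences between subunits were not tested. The mean log2 CPM of the 13 genes was 8.75, 8.59 and 8.52 in EpiLC WT against 8.32, 8.40 and 8.40 in EpiLC KO, again without overlap. The median fold change of the tested genes within 5 Mb ran from -0.24 around Mcm7 (170 genes), near that of Mcm7 itself, to 0.32 around Mcm3. Around Mcm6 it was 0.09 and around Rrm2 -0.11. The part of neighbouring genes was not tested here either. Of the 12 G2 and M genes, 0 were called by edgeR, 1 was higher and 1 lower at an unadjusted p under 0.05, and DESeq2 called Ccna2 higher and Aurkb lower. Their median was -0.02, with Aurka at -0.18 ± 0.103 (adjusted p = 0.275), Aurkb at -0.28 ± 0.0955 (adjusted p = 0.0672) and Ccna2, cyclin A2, at 0.23 ± 0.0828 (adjusted p = 0.0846).

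Several of these calls ended in fits without 1 library, while the genes stayed lower in KO. Cdk2 passed in EpiLCs without any 1 library. Cdk6 did not pass without EpiLC WT replicate 1 (adjusted p = 0.0514) or 3 (0.0637), or EpiLC KO replicate 1 (0.0802) or 2 (0.0685), Cdt1 without EpiLC KO replicate 1 (0.0518), Slbp without EpiLC KO replicate 3 (0.0533), and Rrm2 without replicate 1 of EpiLC WT (0.0844) or 1 (0.0699) or 3 (0.0815) of EpiLC KO. The calls closest to the threshold ended in most such fits: Gmnn in all but those without naive WT replicate 1 or 2 or EpiLC WT replicate 3 (adjusted p from 0.0512 to 0.137), Mcm6 in all but those without naive KO replicate 3 or EpiLC WT replicate 2 (0.05 to 0.16) and Mcm7 in all but those without naive KO replicate 3 or EpiLC WT replicate 3 (0.0509 to 0.15). The count of 8 became 2 without EpiLC KO replicate 1, 3 without EpiLC KO replicate 3 or EpiLC WT replicate 1, 4 without EpiLC KO replicate 2, and 5 without replicate 3 of naive WT or 1 or 2 of naive KO. Without EpiLC WT replicate 2 it was 7, of which 1 was higher, and on the 6 EpiLC libraries alone it was 3. With all 12 libraries, Mcm6 and Mcm7 also did not pass in edgeR scaled by DESeq2's size factors (adjusted p = 0.054 and 0.0505). Nor did they with genes of a mean of at least 1 CPM (0.0663 and 0.0643).

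Mki67, the gene of the proliferation marker Ki-67, is named here because 1 library decided it. It read 128, 317 and 119 CPM in EpiLC WT against 229, 227 and 262 in EpiLC KO (0.35 ± 0.280, adjusted p = 0.438). EpiLC WT replicate 2, the library with the most naive marker RNA, was at the level of the naive libraries (327, 304 and 287 CPM in naive WT). Without it Mki67 was higher in EpiLC KO by 0.95 (adjusted p = 0.000206) and the interaction of genotype and condition passed (0.97, adjusted p = 0.0111).

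**Figure D4:**
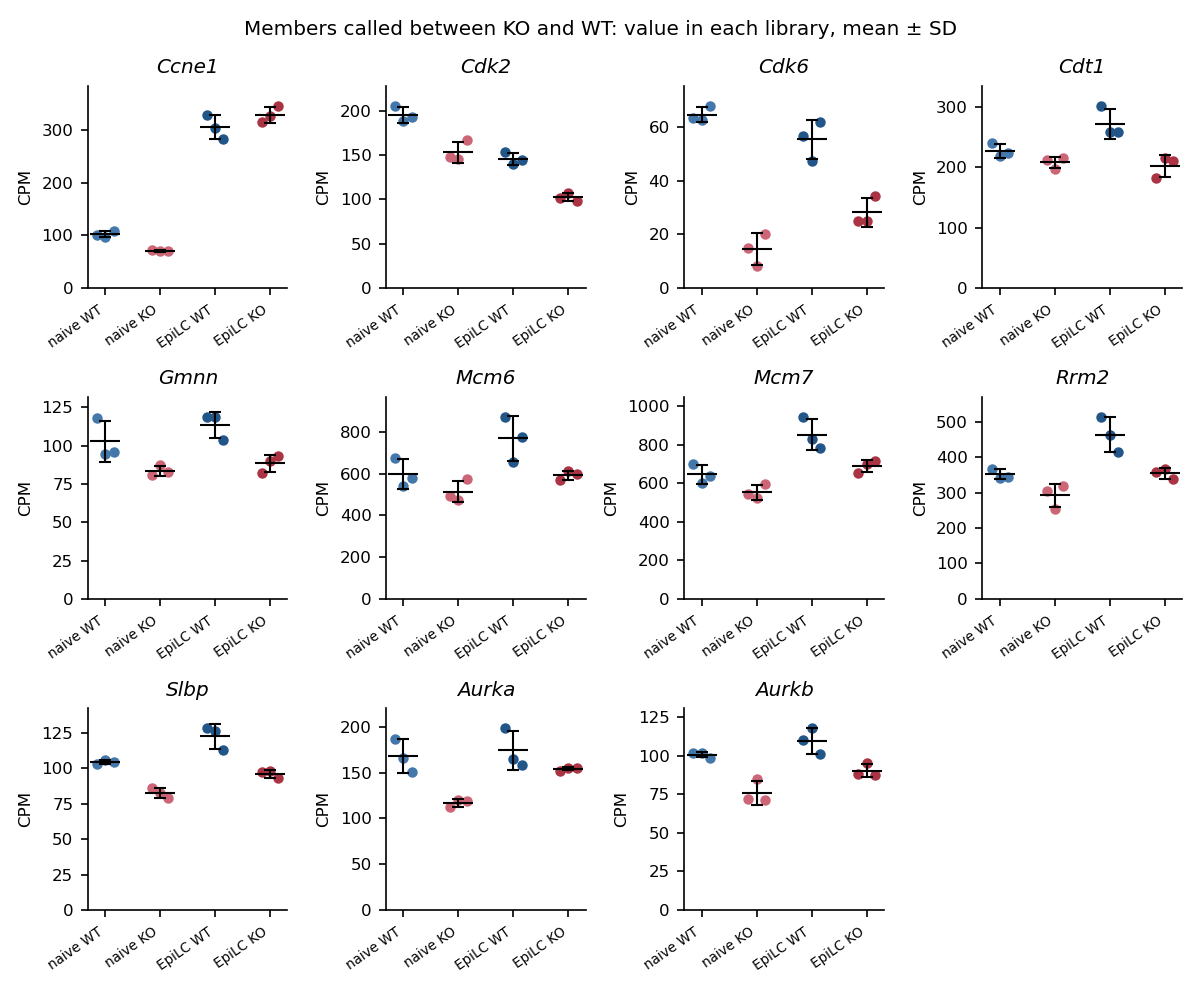
CPM of the 11 members called between KO and WT in either condition, on linear axes from 0; points are libraries in the order of their replicate number, and bars are the mean and SD of 3. For Cdk6 and Cdk2 the KO points lie below the WT points in both conditions, while for Ccne1 they do so in naive cells only, at 69.3 to 71.8 CPM.

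The wider cell cycle was followed in 159 genes of 7 further lists, none of them members. In naive KO, 1 rose and 11 fell (0.629% and 6.92%, beside 4.27% and 4.95% of all genes). In EpiLC KO, 5 rose and 22 fell (3.14% and 13.8%, beside 7.22% and 7.86%). The largest list, that of DNA replication, held 40 genes of origin firing and the replication fork. In naive cells 4 fell and 0 rose (10% lower, the same share as in the list of nucleotide supply). In EpiLCs 11 fell and 0 rose (27.5% lower, beside 23.5% in the list of the anaphase-promoting complex). Pold1, the catalytic subunit of DNA polymerase delta, read 206, 203 and 199 CPM in naive WT against 111, 110.3 and 113 in naive KO (-0.86 ± 0.0937, adjusted p = 0.000299), and 291, 238 and 254 in EpiLC WT against 109, 130.3 and 122 in EpiLC KO (-1.11 ± 0.0941, adjusted p = 4.88e-05). Its libraries of the 2 genotypes were far apart in both conditions, and the calls held without any 1 library. In EpiLCs its accessory subunit Pold2 (-0.59 ± 0.111) and the polymerase alpha subunit Pola2 (-0.52 ± 0.108) also fell, as did the fork protection gene Tipin in naive cells (-0.52 ± 0.109). Mcm10 fell in naive cells (-0.40 ± 0.108, adjusted p = 0.037), a call lost without replicate 1 or 2 of either naive group or EpiLC KO replicate 2 (adjusted p from 0.0513 to 0.129).

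Of 20 genes of nucleotide supply, 2 fell in naive KO and 3 in EpiLC KO, with 0 rising in either (10% and 15% lower, beside 4.95% and 7.86% of all genes). Tk1, thymidine kinase, read 112, 123 and 117 CPM in naive WT against 58.1, 54.7 and 84.3 in naive KO (-0.83 ± 0.151, adjusted p = 0.00523), and 145, 119 and 118 and 67.8, 71.2 and 61.7 CPM in EpiLCs (-0.93 ± 0.151, adjusted p = 0.00217). All KO libraries were below all WT libraries of their condition. In EpiLCs Prps1, of phosphoribosyl pyrophosphate synthesis (-0.43 ± 0.100), and Gart, of purine synthesis (-0.33 ± 0.0877), fell, but Prps1 did not pass without EpiLC KO replicate 2 (adjusted p = 0.0548) nor Gart without replicate 1 or 3 of either EpiLC group (0.0628 to 0.0884).

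Mitosis was followed in 4 lists, and of all genes tested 4.95% were lower in naive KO and 7.86% in EpiLC KO. The share lower was 5.88% in each condition for mitotic entry and checkpoint kinases. It was 3.57% and 7.14% for the spindle checkpoint, kinetochore and cytokinesis, so both lists were near or below the share of all genes. For the anaphase-promoting complex it was 5.88% in naive cells. Of 17 genes of mitotic entry and checkpoint kinases, 1 fell in each condition: Pkmyt1, a kinase that holds CDK1 inactive (-0.42 ± 0.0962 in naive cells and -0.60 ± 0.0967 in EpiLCs), where the naive call was lost without replicate 2 of naive KO (adjusted p = 0.0537). Of 17 genes of the anaphase-promoting complex and its regulators, 1 fell in naive cells, and 1 rose and 4 fell in EpiLCs (23.5% lower, beside 7.86% of all genes). Fzr1, its G1 activator, fell in both (-0.44 ± 0.106 and -0.44 ± 0.106), with a naive call lost without replicate 1 or 3 of naive WT or 1 or 2 of naive KO (adjusted p from 0.051 to 0.0786) and an EpiLC call that ended without replicate 1 of either EpiLC group (0.0574 and 0.0723). Anapc5 (-0.35 ± 0.0778) and the separase gene Espl1 (-0.38 ± 0.0886) fell in EpiLCs, but not without EpiLC KO replicate 1 (0.0556) and EpiLC KO replicate 3 (0.0559), respectively. Of 28 genes of the spindle checkpoint, kinetochore and cytokinesis, 1 fell in naive cells (Bub3, -0.31 ± 0.0811, with adjusted p from 0.0691 to 0.087 without replicate 2 of naive WT or 1 or 2 of naive KO) and 2 in EpiLCs. These were Prc1 (-0.36 ± 0.0839, adjusted p = 0.0543 without EpiLC KO replicate 3) and Spc24 (-0.42 ± 0.130, 0.0573 to 0.169 without any 1 library other than EpiLC WT replicate 2). Of 15 condensin and cohesin genes, edgeR and DESeq2 called 0 in either condition, with 0 at an unadjusted p under 0.05 in naive cells and 2 higher and 3 lower in EpiLCs.

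Among 22 genes of the RB and E2F families and further CDK inhibitors, the direction was mixed: 1 rose and 2 fell in naive KO, and 4 rose and 1 fell in EpiLC KO. These are 4.55% higher and 9.09% lower in naive cells, beside 4.27% and 4.95% of all genes. In EpiLCs they are 18.2% higher and 4.55% lower, beside 7.22% and 7.86%. Cdkn1a, the CDK inhibitor p21, read 71.4, 85.5 and 70.1 CPM in EpiLC WT against 147, 106 and 139 in EpiLC KO (0.79 ± 0.156, adjusted p = 0.00614). It was above all WT libraries in all 3 KO libraries, and the call held without any 1 library. Cdkn2b, an INK4 inhibitor, rose in EpiLCs (0.81 ± 0.202, adjusted p = 0.0198), a call that ended without replicate 1 or 3 of EpiLC WT or 2 or 3 of EpiLC KO (0.0568 to 0.0762). Cdkn1c, named after its values were seen, rose too (1.04 ± 0.296, adjusted p = 0.0338), a call that ended without any 1 EpiLC library other than EpiLC KO replicate 3 (0.0507 to 0.164). Rb1, the retinoblastoma gene, read 9.26, 5.29 and 14.9 CPM in naive WT against 27.8, 23.0 and 21.3 in naive KO (1.29 ± 0.368, adjusted p = 0.0465), then 11.3, 6.91 and 17.6 in EpiLC WT against 48.2, 28.8 and 35.9 in EpiLC KO (1.65 ± 0.369, adjusted p = 0.0113). In naive cells the call held only without naive WT replicate 3 or EpiLC WT replicate 2 or 3 (adjusted p from 0.0561 to 0.164 in the other fits without 1 library) and the EpiLC call ended without EpiLC KO replicate 1 (0.0512). WT replicate 2 was its lowest library in both conditions, and the median of its chromosome 14 neighbours within 5 Mb was also low in that clone, -0.61 from the WT mean in naive cells and -0.62 in EpiLCs. Between KO and WT these neighbours had a median fold change of 0.31 in naive cells and 0.33 in EpiLCs. Their part in the rise of Rb1 was not tested. In naive cells E2f4, a repressive E2F (-0.35 ± 0.0960), and the inhibitor gene Cdkn1c (-1.30 ± 0.355), at 1.75 CPM in WT, fell with calls that each ended without any 1 of 7 libraries, most of them naive (adjusted p from 0.0503 to 0.0979 and 0.0516 to 0.115).

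The third comparison followed the same genes from naive cells to EpiLCs within each genotype. In WT, 18 members rose and 6 fell, and in KO 20 rose and 5 fell. The share that rose was 50% in WT and 55.6% in KO, beside 26.4% and 27.1% of all genes, and the share that fell 16.7% and 13.9%, beside 26.3% and 28.1%. In both genotypes the G1 genes Ccnd3, Cdk2, Cdkn1b, Cdkn2c and E2f1 fell, joined in WT by Foxm1, while the rises were mostly in licensing, replication and mitotic genes. The WT and KO transitions share no library, but each group here also stood in a comparison of genotypes above.

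The D- and E-type cyclins moved in different directions. Ccnd2 went from 0.192, 0.352 and 0.478 CPM in naive WT to 20.8, 11.0 and 24.2 in EpiLC WT and from 0.891, 0.279 and 0.369 to 27.6, 24.5 and 12.4 in KO (5.74 ± 0.519 and 5.38 ± 0.499, adjusted p = 2.05e-06 and 2.12e-06). Ccnd3 went the other way, to 107, 163 and 110.2 CPM in EpiLC WT against 125, 182 and 126 in EpiLC KO (-1.03 ± 0.224 and -1.18 ± 0.224, adjusted p = 0.00196 and 0.000672). Ccnd1 was near its naive level, at 265, 194 and 215 and 234, 211 and 199 CPM, and did not pass in either genotype (adjusted p = 0.86 and 0.323). Per length, Ccnd1 made up 60.8% ± 5.77 of the D-type cyclins in naive WT and 74.1% ± 6.14 in EpiLC WT, Ccnd3 39.2% ± 5.76 and 22.8% ± 6.94, and Ccnd2 0.0483% ± 0.0205 and 3.09% ± 1.16 (SD, n = 3). Ccnd2 thus had the largest fold change of the members and still the smallest share of its family. Ccne1 rose 3.00-fold in WT (1.59 ± 0.0848, adjusted p = 2.58e-08) and 4.68-fold in KO (2.23 ± 0.0866, adjusted p = 2.01e-09), while Ccne2, at 7.87, 17.5 and 15.3 CPM in EpiLC WT against 18.9, 12.7 and 15.9 in EpiLC KO, passed in neither (adjusted p = 0.7 and 0.128).

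The CDK inhibitors among the members, Cdkn1b and Cdkn2c, and E2f1 fell in both genotypes. Cdkn1b fell by 1.01 on the log2 scale in WT (adjusted p = 0.000542) and fell by 1.37 in KO (adjusted p = 4.56e-05), with every EpiLC library below every naive library. Cdkn2c was at 1.29, 0.934 and 1.43 CPM in EpiLC WT against 1.22, 0.978 and 0.873 in EpiLC KO (-1.09 ± 0.278 and -0.95 ± 0.279), and its KO call was lost without replicate 2 of naive KO (adjusted p = 0.0621). E2f1 was at 55.4, 57.7 and 59.6 CPM in EpiLC WT against 54.9, 65.4 and 57.7 in EpiLC KO (-0.69 ± 0.105 and -0.64 ± 0.105, adjusted p = 0.000149 and 0.000232). Of the kinases, Cdk2 fell in both (-0.42 ± 0.0853 and -0.58 ± 0.0855) and Cdk4 rose in both (0.39 ± 0.107 and 0.29 ± 0.107), though the KO call of Cdk4 ended without naive KO replicate 1 or 2 or EpiLC KO replicate 2 or 3 (adjusted p from 0.0736 to 0.144). Cdk6 did not pass in WT (-0.22 ± 0.241, adjusted p = 0.461) and rose in KO (0.96 ± 0.247, adjusted p = 0.00517), to a level still below that of EpiLC WT.

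Of the 13 licensing and S phase genes, 9 rose in WT and 8 in KO, and 0 fell in either. The share that rose was 69.2% in WT and 61.5% in KO, beside 26.4% and 27.1% of all genes. Of all genes, 26.3% fell in WT and 28.1% in KO. Pcna, the sliding clamp of the polymerases, read 259, 228 and 233 CPM in naive WT against 384, 393 and 335 in EpiLC WT, and 198, 202 and 203 and 327, 336 and 334 in KO (0.63 ± 0.0838 and 0.73 ± 0.0839, adjusted p = 4.93e-05 and 1.32e-05). Mcm2 read 703, 623 and 654 and 1021, 874 and 864 CPM in WT and 561, 523 and 636 and 753, 789 and 831 in KO (0.48 ± 0.0969 and 0.46 ± 0.0969). Rrm1 read 342, 279.6 and 315 and 451, 411 and 385 CPM in WT and 275, 277 and 291 and 401, 394 and 434 in KO (0.41 ± 0.0923 and 0.55 ± 0.0925). For all 3, every EpiLC library was above every naive library of its genotype. Mcm7, at 701, 602 and 639 CPM in naive WT against 544, 522 and 599 in naive KO, also rose in both (0.40 ± 0.0935 and 0.32 ± 0.0934), as did Cdc6 (0.36 ± 0.107 and 0.40 ± 0.107), Rrm2 (0.40 ± 0.102 and 0.28 ± 0.102) and Slbp (0.23 ± 0.0822 and 0.22 ± 0.0823). Cdt1 (0.26 ± 0.0945) and Mcm6 (0.36 ± 0.117) passed in WT and not in KO (-0.04 and 0.20), and Mcm4 in KO (0.22 ± 0.0759) and not in WT (0.14). The interaction did not pass for any of these 3 (adjusted p from 0.383 to 0.843). Gmnn, Mcm3 and Mcm5 passed in neither genotype, Mcm3 with fold changes of -0.12 and -0.00.

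Several of these rises were small and did not pass in some fits without 1 library. In WT, that of Slbp ended without any 1 of the 3 naive WT libraries, naive KO replicate 1 or 2 or EpiLC WT replicate 1 or 2 (adjusted p from 0.0511 to 0.0945). Cdt1 and Mcm6 ended without naive WT replicate 2 or 3 or EpiLC WT replicate 1 (0.0969 to 0.131 and 0.0721 to 0.0926), Cdt1 also without naive KO replicate 1 (0.0535), and Cdc6 without naive WT replicate 3 (0.0598) or EpiLC WT replicate 1 (0.0553). In KO, Slbp (0.0585 to 0.0975) ended without naive KO replicate 3 or EpiLC KO replicate 1 or 2, Rrm2 (0.0763 to 0.0968) without naive KO replicate 2 or EpiLC KO replicate 1 or 2, and Mcm4 without EpiLC KO replicate 1 (0.101) or 2 (0.0768). With the clone as a block, since the naive and EpiLC libraries of a clone share it, Mcm5 (0.21 without and 0.20 with the block, adjusted p = 0.0206) and Mcm6 (0.21, adjusted p = 0.0399) rose in KO as well.

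Of the 12 G2 and M genes, 6 rose and 1 fell in WT (50% and 8.33%, beside 26.4% and 26.3% of all genes). In KO 8 rose and 0 fell (66.7% and 0%, beside 27.1% and 28.1%). Top2a, the topoisomerase that untangles sister chromatids, read 966, 861 and 979 CPM in naive WT against 1342, 1408 and 1432 in EpiLC WT, and 810.1, 849 and 830.0 and 1418, 1276 and 1495 in KO (0.58 ± 0.0817 and 0.75 ± 0.0819, adjusted p = 8.14e-05 and 8.2e-06). Cdc20 read 297, 232 and 255 and 439, 374 and 392 CPM in WT and 230.1, 216 and 245 and 367, 392 and 431 in KO (0.62 ± 0.107 and 0.78 ± 0.107). Neither gene's naive and EpiLC libraries overlapped. The mitotic kinase Plk1 read 171, 150.2 and 156 and 252, 202 and 219 CPM in WT and 135, 135 and 142 and 183, 201 and 205 in KO (0.50 ± 0.0961 and 0.51 ± 0.0962). Ccnb1, cyclin B1, read 262, 235 and 255 and 340.0, 292 and 323 CPM in WT and 219, 235 and 219.6 and 319, 299 and 325 in KO (0.34 ± 0.0838 and 0.49 ± 0.0839). Ccna2 (0.31 ± 0.0829 and 0.58 ± 0.0831) and Cdk1 (0.22 ± 0.0850 and 0.44 ± 0.0851) rose in both, though the WT call of Cdk1 held only without naive KO replicate 3 or EpiLC WT replicate 3 (adjusted p from 0.0549 to 0.153 in the other fits without 1 library). Aurka (0.40 ± 0.104) and Aurkb (0.25 ± 0.0956) rose in KO and did not pass in WT (0.05 and 0.12). Aurkb did not pass without any 1 of the 6 KO libraries other than naive KO replicate 2 (0.0562 to 0.128), and the interaction passed for neither (adjusted p = 0.358 and 0.769). Foxm1, a transcription factor of G2 and M genes, fell in WT (-0.37 ± 0.135), a call that ended without naive WT replicate 1 (0.0842) or 3 (0.0903) or EpiLC WT replicate 2 (0.108). Ccnb2 and Bub1 passed in neither genotype, though Bub1 did in both once the trend with GC content was removed. Mki67 was at -0.70 in WT (adjusted p = 0.0506), at -0.86 with the clone block (adjusted p = 0.0125) and at -1.31 without EpiLC WT replicate 2 (adjusted p = 8.94e-07). In KO it was at -0.34 (adjusted p = 0.329, or 0.00624 without EpiLC WT replicate 2). That library is not in the KO transition and enters its test only through what the fit shares, such as the estimate of the spread.

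The further lists showed which parts of the cycle moved in the transition. Of 159 genes, 51 rose and 32 fell in WT (32.1% and 20.1%, beside 26.4% and 26.3% of all genes), and 44 rose and 29 fell in KO (27.7% and 18.2%, beside 27.1% and 28.1%), so the rises in KO were near the share of all genes. The repressive E2F genes E2f7 (1.75 ± 0.149 in WT and 1.99 ± 0.150 in KO) and E2f8 (1.30 ± 0.121 and 1.50 ± 0.121), themselves E2F targets, rose in both. Cdkn1a fell in both (-1.76 ± 0.159 and -1.33 ± 0.157, adjusted p = 2.08e-06 and 1.57e-05). Cdkn1c rose in both (2.83 ± 0.326 and 5.18 ± 0.367, adjusted p = 1.5e-05 and 2.47e-07), in KO from 1.01, 0.418 and 0.707 CPM to 35.6, 26.1 and 15.5 CPM, and its interaction did not pass (2.34 ± 0.462, adjusted p = 0.0571). Of the 40 origin and fork genes, 17 rose and 3 fell in WT (42.5% and 7.5%, beside 26.4% and 26.3% of all genes). In KO 13 rose and 2 fell (32.5% and 5%, beside 27.1% and 28.1%), so the rises in KO were nearer the share of all genes. Gins2 of the replicative helicase (0.90 ± 0.132 and 0.80 ± 0.131) and the single-strand binding subunit Rpa2 (0.65 ± 0.0951 and 0.65 ± 0.0951) rose in both. Cks1b, a small CDK-binding protein gene, rose in both (1.20 ± 0.104 and 1.30 ± 0.104). Of the 15 condensin and cohesin genes, 5 fell and 1 rose in WT, and 4 fell and 1 rose in KO (33.3% and 26.7% lower, near the 26.3% and 28.1% of all genes). Within cohesin, Rad21 (-0.70 ± 0.0835 and -0.71 ± 0.0835) and Stag1 (-1.24 ± 0.186 and -1.34 ± 0.186) fell while the alternative subunit Stag2 rose (0.78 ± 0.190 and 1.05 ± 0.190). Anapc10, a subunit of the anaphase-promoting complex, fell in both (-1.57 ± 0.189 and -1.67 ± 0.189), as did Anln, the cytokinesis gene anillin (-0.72 ± 0.111 and -0.78 ± 0.111).

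**Figure D5:**
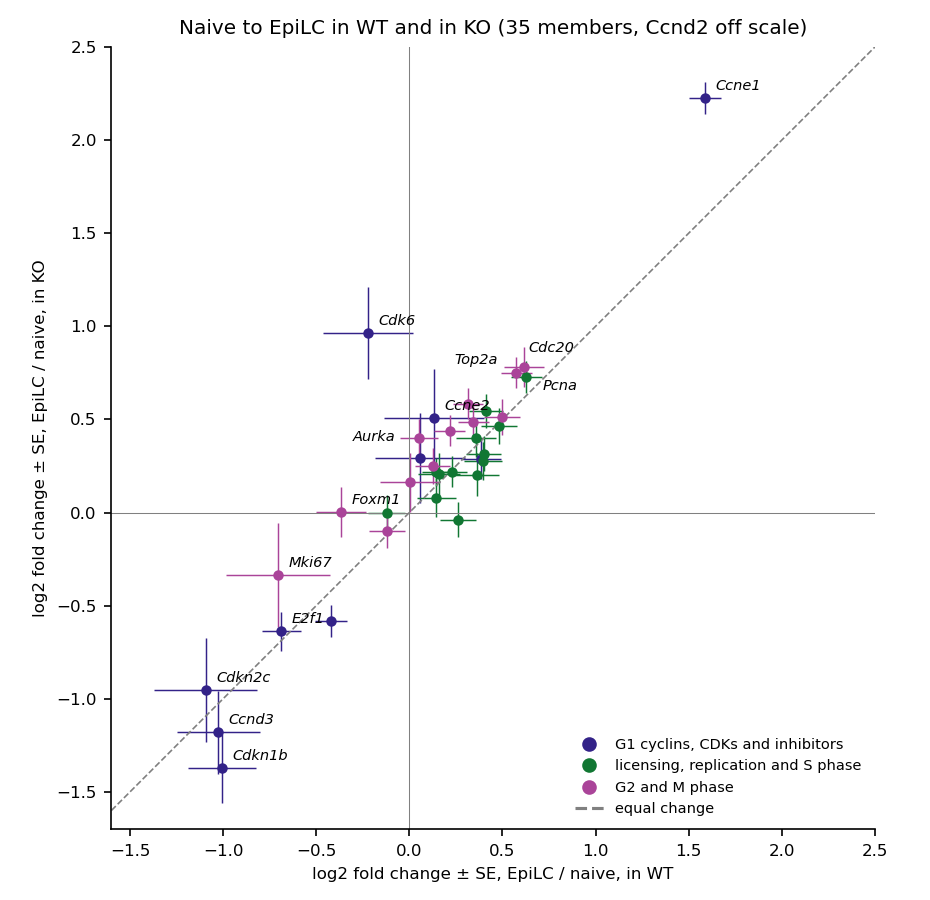
Log2 fold change with SE from naive cells to EpiLCs in WT (x axis) against that in KO (y axis) for 35 members; Ccnd2, at 5.74 and 5.38, is off scale, and the dashed line marks equal change. Ccne1 (1.59 and 2.23) and Cdk6 (-0.22 and 0.96) lie farthest above the line, and Ccnd3, Cdkn1b, Cdkn2c and E2f1 fell in both genotypes.

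The last comparison asked whether the KO effect differed between the conditions. Ccne1 was the only member called, 1 of 36, beside 0.381% of all genes (69 of 18134). At an unadjusted p under 0.05, 4 members were higher and 1 lower, beside 6.19% and 6.14% of all genes. DESeq2 called 2 higher, Ccne1 and Cdk6, and 0 lower, beside 1.58% and 1.16%. For Ccne1 the KO effect was -0.53 in naive cells and 0.11 in EpiLCs, an interaction of 0.64 ± 0.117 (adjusted p = 0.0425), so the KO clones began lower and reached the WT level. The call held only without replicate 2 of naive WT, replicate 3 of naive KO or EpiLC WT replicate 2, and ended in the other 9 fits without 1 library (adjusted p from 0.0528 to 0.12), in which the interaction lay between 0.59 and 0.69. For Cdk6 the effects were -2.16 and -0.97, an interaction of 1.19 ± 0.345 (adjusted p = 0.176) that passed with the clone as a block (1.26, adjusted p = 0.0421) and without naive KO replicate 3 (1.54, adjusted p = 0.0488). All 12 G2 and M genes had interactions above 0, from 0.02 for Plk1 to 0.37 for Foxm1, and 0 passed (edgeR; 2 at an unadjusted p under 0.05 and 0 by DESeq2). Of the 159 other cell cycle genes, 0 passed by edgeR, 4 were higher and 7 lower at an unadjusted p under 0.05, and DESeq2 called 1.

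The median GC content of the members was 50.2% (39.8% to 59%), beside 50.5% for the genes tested. Over all genes, which do not replicate each other, the KO fold change ran against GC content (Spearman -0.24 in naive cells and -0.323 in EpiLCs). Once every library's trend with GC was taken out, an alternative added with the data in view, 12 members were lower in naive KO and 10 in EpiLC KO, again with 0 higher. The share of all genes called in that fit is not given here, so these counts cannot be set against it. Cdt1 was then lost in EpiLCs (-0.21, adjusted p = 0.0753), and Cdc6, Gmnn, Mcm4, Pcna, Cdk1 and Top2a were added in naive cells, and Cdkn1b, Mcm4 and Pcna in EpiLCs. In the transitions Bub1 then rose in WT (0.41, adjusted p = 0.00455) and KO (0.46, adjusted p = 0.00217), Mcm4 in WT (0.41, adjusted p = 0.00574), and Ccne2 (0.62, adjusted p = 0.0263) and Mcm5 (0.27, adjusted p = 0.0322) in KO, while Cdt1 was lost in WT (0.08, adjusted p = 0.375). Of the further genes named above, E2f4, Cdkn1c, Rb1 and Pkmyt1 in naive cells, Fzr1 in both conditions, and Espl1 and Spc24 in EpiLCs no longer passed (adjusted p from 0.0624 for E2f4 to 0.156 for Spc24). Exons shared with another gene made up 23.4% of Ccnd1, 19.7% of Cdk4, 17.4% of Ccne2, 12.6% of Mcm7, 12.5% of Ccna2, 7.8% of Slbp and 2.63% of Cdk6, and no option for strand stands in the header, so reads there may belong to either gene.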

How the data were processed

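Values are read counts for each gene as the authors deposited them, made with featureCounts 2.0.1 against GENCODE vM25 on GRCm38, per the file header; the header shows no strand option, and the aligner's and trimmer's versions are not given in the sources used here. The 346 rows without a gene symbol, 0.0233 to 0.0312% of a library's counts, could not match a list. They stayed in the library sizes and, where they passed the filter, among the genes tested. Libraries were grouped by the genotype and condition of their labels. Genes were kept with edgeR 4.0.16's filterByExpr (minimum count 10, minimum total 15), scaled by TMM and fitted with its quasi-likelihood test over all 12 libraries (8 residual degrees of freedom), with Benjamini-Hochberg adjustment over all 18134 genes tested and a threshold of 0.05. CPM are counts scaled to 1000000 by the TMM-scaled library size, and CPM per kb divides by the summed exon length. Standard errors are of the log2 fold change. DESeq2 1.42.0, other scalings, filters and fits, removal of GC trends and leaving out each library were alternatives, and the calculations were tested on simulated data. The GC trend of each library was a lowess curve (R 4.3.3) given to edgeR as an offset. The members and lists were chosen with earlier results of these data known. Members called between genotypes, those with the smallest p in the WT transition and those heading a group by role are given in every library, and of the other lists up to 3 called genes a comparison; a gene that this rule picks is not reported here. Naive and EpiLC libraries of the same number within a genotype deviated together (r = 0.236, 0.235 and 0.218 in WT, and 0.145, 0.234 and 0.264 in KO), so the clone was used as a block in an alternative for the transition. Promoter windows came from RefSeq (GRCm38.p6). Figures were drawn with matplotlib 3.10.9.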

Additional observations from a re-analysis of the deposited data

Results flagged for a closer look

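In the main fit, Ccne1 was the one member whose KO effect differed between naive cells and EpiLCs by a test of the difference itself. The interaction of genotype and condition was 0.64 ± 0.117 on the log2 scale (edgeR, Benjamini-Hochberg adjusted p = 0.0425; 0.036 to 0.12 over the fits without 1 library and 2.12e-05 to 0.0703 over the other alternatives). All 3 KO libraries were below all 3 WT libraries in naive cells, and the groups overlapped in EpiLCs. The Ccne1 call ended in 9 of the 12 fits without 1 library and with the replicate number as a block. Cdk6 did not pass in the main fit (adjusted p = 0.176). It did under DESeq2 (0.0487), in edgeR without a filter (0.00359) and in edgeR with the clone as a block (0.0421).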

How the results depend on the processing

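Called members of a comparison of genotypes were lower in all alternatives, with 2 exceptions, Ccna2 under DESeq2 or a mean of at least 1 CPM and Mki67 without EpiLC WT replicate 2, both higher in EpiLCs; no called member changed sign. The cause of the following moves was not tested, and the shares of all genes called in these fits are not given beside them. In naive cells DESeq2 called 10 members (4 of licensing and S phase), removal of the GC trend, chosen after seeing the data, 12 (5 of licensing and S phase, 4 of G2 and M), and the fit without a filter 4, with 0 of licensing and S phase. In EpiLCs the fit of the compared groups alone, with fewer samples, called 3 (1 of licensing and S phase), and in G2 and M DESeq2 called 2 and a mean of at least 1 CPM 1. For the interaction DESeq2 and the fit without a filter called 2. With the replicate number as a block, whose WT and KO libraries share only a number (r from -0.266 to 0.00895), it called 0, and 6 members in each comparison of genotypes. With the clone as a block it called 2, and 25 and 27 members in the WT and KO transitions. Without 1 library each, 4 to 9 members were called in naive cells (G1, 2 to 4; licensing and S phase, 0 to 2; G2 and M, 1 to 3), 2 to 7 in EpiLCs (1 to 2, 1 to 5 and 0 to 1), 18 to 24 in the WT transition, 20 to 26 in the KO transition and 0 to 2 for the interaction. Depth was not low for the members, except Ccnd2 in naive cells and Cdkn2c, whose few reads leave wide errors.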
